A study of Mus musculus with 27 samples.

Results

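The genes described here encode the chain of proteins through which β-catenin reaches its transcriptional partners: Ctnnb1 (β-catenin), the adaptors Bcl9 and Bcl9l (B9/B9L), the Pygopus genes Pygo1 and Pygo2, and Ldb1. The 6 genes were taken by symbol from a table of 24454 genes, and all 6 were found. Their RNA was measured in 27 libraries from 9 cell lines grown out of mammary tumours of MMTV-PyMT mice (FVB/N), in which a viral oncogene is driven in the mammary epithelium. Lines of 4 genotypes were compared. ΔHD1/fl and ΔHD2/fl lines carried, at Bcl9 and at Bcl9l, 1 allele with an in-frame deletion of the HD1 or the HD2 domain and 1 floxed allele that acts as wild type. In ΔHD1/- and ΔHD2/- lines, called recombined, the floxed alleles had been removed in culture with an adenovirus expressing Cre recombinase and GFP, and the cells had been sorted for GFP. Each line was grown without cytokine (labelled as day 4), with Wnt3a (100 ng/ml, 3 days) or with TGFβ (2 ng/ml, 4 days). Every genotype had 2 lines, described as coming from different mice, except ΔHD2/-, which had 3. Recombined lines were made by infecting floxed cells, and which fl line, if any of these, gave rise to which recombined line is not given, so lines of a family may share a tumour. All lines carried the PyMT transgene and a mutant allele of B9/B9L, and lines with wild-type B9/B9L alone were not analysed here.

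In canonical Wnt signalling a destruction complex marks cytoplasmic β-catenin for degradation, and a Wnt ligand stops this, so that β-catenin accumulates and binds TCF/LEF factors on DNA. Bcl9 and Bcl9l bind β-catenin through their HD2 domain and Pygopus through their HD1 domain, and Pygopus reads a methylated lysine of histone H3 with its PHD finger. Ldb1 is an adaptor that, as a dimer with single-stranded DNA-binding proteins (Ssbp), forms the core of the Wnt enhanceosome to which Pygopus and Bcl9 proteins bind. Because β-catenin is regulated mainly through protein stability, and because it also holds cadherins to the cytoskeleton at cell junctions, an RNA level is not a measure of its signalling activity. The comparisons below ask how much RNA for each component these lines held, and whether it differed with cytokine or after recombination.

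Levels are given in CPM, the reads of a gene per 1000000 reads assigned to genes. Libraries held 21.86 to 33.69 M reads (M, 1000000), and a count of 0 allowed up to 3 reads, or 0.089 to 0.137 CPM. Axin2, a feedback inhibitor induced by β-catenin, was taken as the check of the Wnt3a treatment and was at 0.131 to 2.97 CPM without cytokine and at 13.5 to 80.8 CPM with Wnt3a (log2 fold change 4.22 ± 0.19 SE, limma adjusted p = 7.26e-10, higher in 9 of 9 lines). Some lines stood apart. ΔHD2/- lines 2 and 3 were nearly alike (correlation over genes 0.993 to 0.997, where the 15 remaining replicate pairs had 0.807 to 0.957), and that they are independent was not shown. The labels call the cells epithelial, yet Cdh1 (E-cadherin) was at 0.0355 to 0.522 CPM in ΔHD1/fl line 2 and at 0.121 to 0.288 CPM in ΔHD1/- line 2, against 4.29 to 1189 CPM in the other 7 lines. Of the 7 epithelial markers, 3 (Cdh1, Epcam and Krt18) were lower in both those lines than in every other, but Krt8 was at 988 to 2884 CPM in ΔHD1/- line 2, against 601 to 2714 CPM in the other 7 lines, and at 0.178 to 4.54 CPM in ΔHD1/fl line 2. The epithelial sum was 37.6 to 358 CPM in ΔHD1/fl line 2, 1219 to 3003 CPM in ΔHD1/- line 2 and 2065 to 19529 CPM elsewhere. The 8 fibroblast markers summed to 1500 to 7612 CPM in the lines with little Cdh1, against 0.747 to 290.4 CPM elsewhere. Of the 8, the collagen genes Col1a1, Col1a2 and Col3a1 were higher in both lines than in every other under all treatments. Pdgfra (416 and 629 CPM, against at most 15.4) and Pdgfrb (762 and 473 CPM, against at most 193) were so without cytokine and overlapped over all treatments, while Dcn was at most 1.51 CPM there and Lum and Thy1 at most 0.0355 and 0.0360 CPM. The 5 mesenchymal markers summed to 3831 to 4591 CPM, against 102.0 to 1557 CPM, with 2 of 5 (Vim and Zeb1) higher in both lines than elsewhere. The 4 immune markers summed to 1.47 to 24.5 CPM, mostly Cd68 (1.43 to 24.5 CPM), while Ptprc (CD45) reached 0.252 CPM and Lyz2 2.32 CPM. The 3 endothelial markers summed to 0.0428 to 6.47 CPM, with Cdh5 up to 6.32 CPM and Pecam1 (CD31) up to 2.07 CPM. In RNA from whole cultures, fewer cells of a type and less RNA per cell cannot be told apart.

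The genes lie on 3 chromosomes (GRCm38, the assembly also called mm10). Ctnnb1 spans chr9:120929216-120960507 on the plus strand, Bcl9l chr9:44482825-44511896 (plus), Pygo1 chr9:72925645-72952181 (plus), Bcl9 chr3:97203662-97297917 (minus), Pygo2 chr3:89430214-89435128 (plus) and Ldb1 chr19:46031570-46045214 (minus). In GENCODE, Ctnnb1 overlaps Ulk4 and an antisense RNA on the other strand (in RefSeq, Ulk4 lies beyond its end), Bcl9l overlaps Cxcr5 and Ldb1 overlaps Pprc1 at their ends. The libraries were stranded but the strand setting of the counting is not given, so reads in these overlaps could belong to either gene. Each gene had 1 value per library over its whole length. The reads of mutant and floxed alleles, or of the exons that recombination removes, were therefore not separated, and the values of Bcl9 and Bcl9l do not check the genotype labels.

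The paralogues Pygo1 and Pygo2 differed most in level, and the 250 bases before their start sites (RefSeq, GRCm38.p6, plus strand) are shown for that reason, with each CG dinucleotide in capitals. The Pygo1 stretch is chr9:72925395-72925644 and the Pygo2 stretch chr3:89429964-89430213.
Pygo1: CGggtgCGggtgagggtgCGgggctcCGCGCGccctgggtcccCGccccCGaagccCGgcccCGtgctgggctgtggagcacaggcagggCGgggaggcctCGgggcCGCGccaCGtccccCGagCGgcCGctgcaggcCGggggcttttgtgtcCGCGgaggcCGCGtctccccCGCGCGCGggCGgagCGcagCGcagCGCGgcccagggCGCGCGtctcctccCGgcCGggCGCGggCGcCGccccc
Pygo2: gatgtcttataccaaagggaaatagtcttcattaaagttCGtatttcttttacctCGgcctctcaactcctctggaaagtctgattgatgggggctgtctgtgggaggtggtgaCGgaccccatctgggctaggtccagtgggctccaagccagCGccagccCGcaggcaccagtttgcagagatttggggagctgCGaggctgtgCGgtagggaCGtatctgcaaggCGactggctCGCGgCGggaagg
The Pygo1 stretch held 41 CG dinucleotides (84% G or C), which 1.09% of 32851 such stretches in the table matched or exceeded, and the Pygo2 stretch held 12 (56.8% G or C), matched or exceeded by 33.5%. The median stretch held 6. Those of Bcl9, Ctnnb1 and Ldb1 held 28, 35 and 40, and no entry was used for Bcl9l. RefSeq and GENCODE gave Pygo1 and Pygo2 the same start, but the RefSeq start of Bcl9 lay 70553 bases, and that of Ctnnb1 4184 bases, inside the gene span given above, so these stretches precede another start of the gene, and that of Ldb1 lay 97 bases from the GENCODE start. None of the 5 held the TCF/LEF core CTTTGA on either strand, a sequence present in 13.8% of all such stretches. Of Pygo1 and Pygo2, the gene with the more CG-rich upstream sequence was the one with the lower RNA level. That order did not hold over the genes, since Ldb1 and Ctnnb1 had the highest medians per kilobase of exon (38.2 and 231.7 CPM). The comparison is a description of letters in a window, and binding and methylation were not measured.

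Per kilobase of exon, Ctnnb1 was the most abundant of the genes and Pygo1 was close to undetected. The median over 27 libraries was 231.7 CPM per kilobase for Ctnnb1, 38.2 for Ldb1, 31.8 for Pygo2, 21.01 for Bcl9l, 5.44 for Bcl9 and 0.0150 for Pygo1. Ctnnb1 was above Ldb1 in 27 of 27 libraries, Bcl9l above Bcl9 in 27 of 27 and Bcl9 above Pygo1 in 27 of 27. The middle of the order was less fixed. Ldb1 was above Pygo2 in 20 of 27 libraries and Pygo2 above Bcl9l in 23 of 27, so those neighbours overlapped across libraries. With the longest transcript in place of all exons the order of the medians was the same, and the same pairs were in order in 23 and 21 of 27 libraries.

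**Figure D1:**
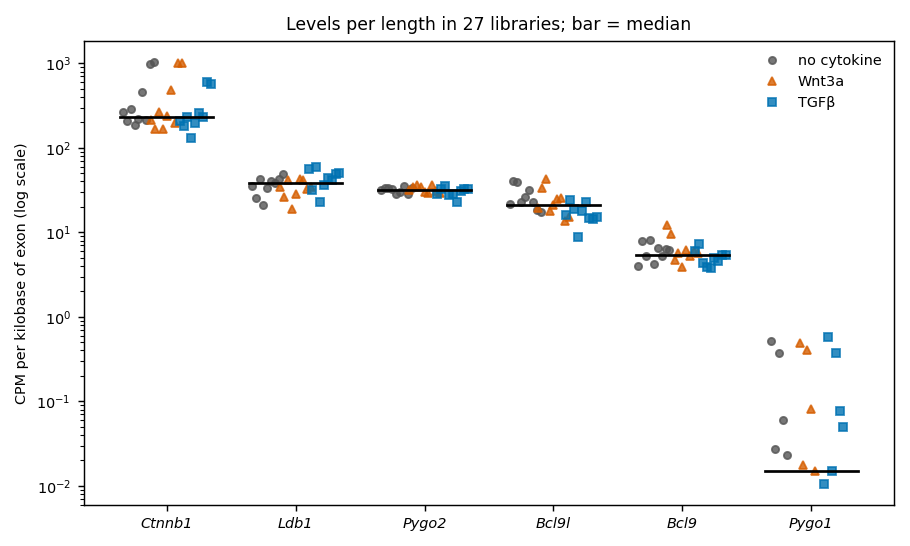
Level of each gene per kilobase of exon (log scale) in 27 libraries, by treatment, with a bar at the median; the 11 libraries in which Pygo1 had 0 reads are not drawn. Ctnnb1 had a median of 231.7 CPM per kilobase, and Pygo1, at 0.0150, was the only gene near the detection limit.

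How much of the variation lay between cell lines differed from gene to gene. On the log2(CPM + 1) scale, 91.9% of the variance of Ctnnb1 and 77.5% of that of Ldb1 lay between the 9 lines, against 58.7% for Bcl9l, 56.9% for Pygo2 and 49.4% for Bcl9. The median over all 13270 genes tested was 66.1%. The share of Pygo1, 99.5%, is not comparable, because that gene entered the tested set only through the lines in which it was high. Treatment accounted for 26.9% of the variance of Bcl9l, the largest share among the 6 genes, and for 0.0899% to 13.6% of the others. Pygo2 varied least: its coefficient of variation over 27 libraries was 10.2%, and only 0.241% of tested genes had a smaller SD on the log2 scale.

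**Figure D2:**
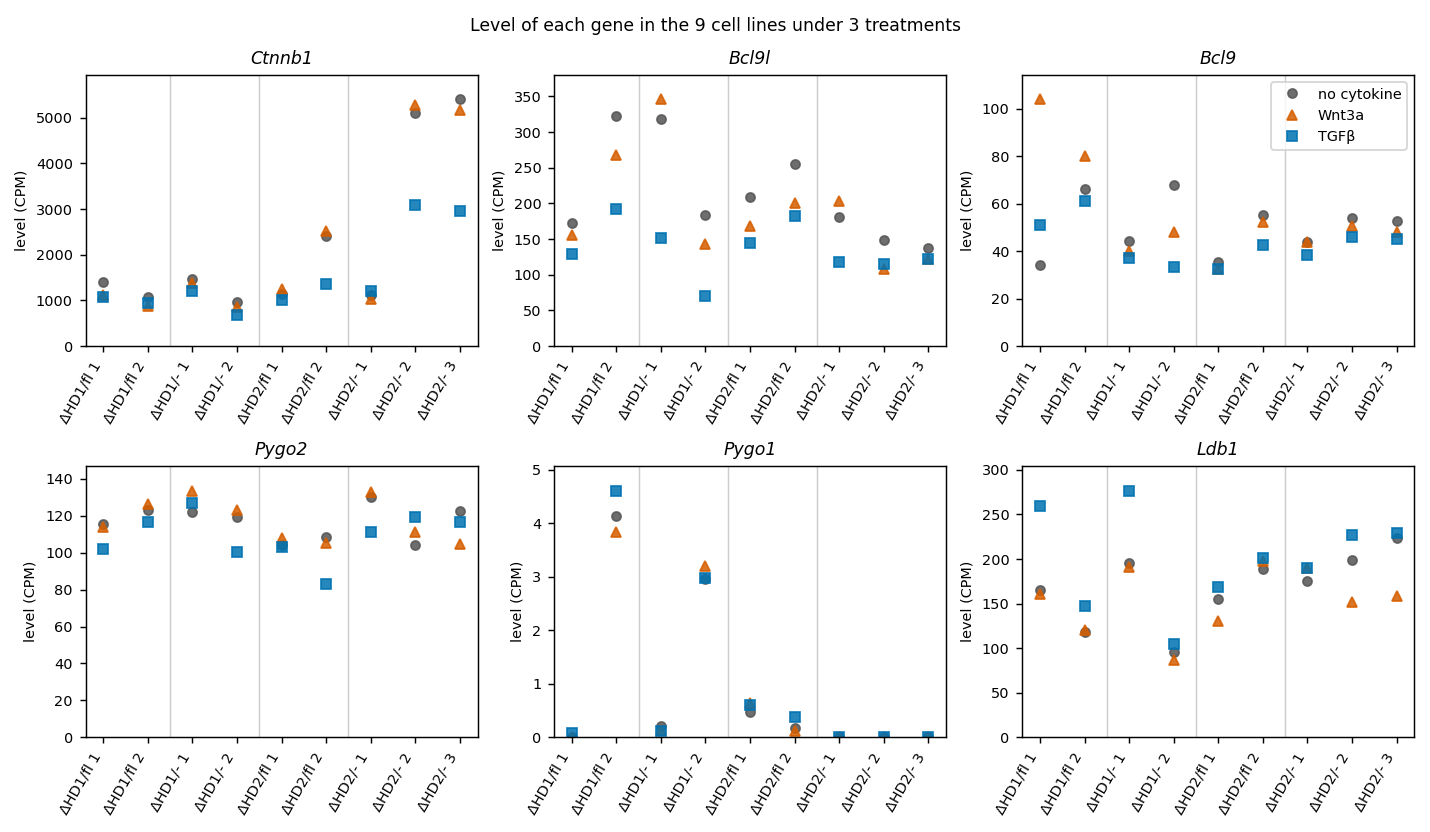
Level (CPM, each axis from 0) of each gene in each of the 9 lines, with 1 point per library and treatment; vertical lines part the genotypes. Ctnnb1 was highest in ΔHD2/- lines 2 and 3, Pygo1 in the lines numbered 2 of ΔHD1/fl and ΔHD1/-, and Pygo2 stayed between 83.1 and 133.5 CPM.

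β-catenin itself was the gene with the widest range among those well above the detection limit. Ctnnb1 ran from 680 CPM in ΔHD1/- line 2 with TGFβ to 5406 CPM in ΔHD2/- line 3 without cytokine, a 7.95-fold range. Without cytokine it was at 1395 and 1066 CPM in the ΔHD1/fl lines 1 and 2, at 1481 and 975 CPM in the ΔHD1/- lines, at 1142 and 2406 CPM in the ΔHD2/fl lines, and at 1120, 5094 and 5406 CPM in ΔHD2/- lines 1, 2 and 3. The 6 libraries of ΔHD2/- lines 2 and 3 lay between 2963 and 5406 CPM, above all 21 libraries of the other lines (680 to 2530 CPM). ΔHD2/fl line 2 was the next highest, and the remaining ΔHD2/- line was at 1027 to 1197 CPM, within the range of the ΔHD1 lines. A high level was thus seen in 2 of 3 ΔHD2/- lines, which were the nearly identical ones. These lines also stood apart in Vim (vimentin). It was at 1.61 to 2.60 CPM in them, against 74.0 to 4188 CPM in the other 7 lines. Twist1 had 0 CPM in all 6 libraries, but was also low in ΔHD2/fl line 2 (0.249 to 0.714 CPM). The mesenchymal markers Cdh2 (117 to 389 CPM), Zeb1 (2.55 to 8.80) and Zeb2 (3.47 to 8.60) lay within the range of other lines. The fibroblast sum, 0.747 to 5.42 CPM, overlapped that of ΔHD2/fl line 2, which went down to 4.44 CPM. In ΔHD2/- lines 2 and 3 the mesenchymal sum was 126 to 402 CPM, within the range of the other lines (102.0 to 4591 CPM). Their epithelial sum, 3774 to 6075 CPM, lay within the range of the other lines, and the part of these markers in the level of Ctnnb1 was not tested.

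Bcl9l was the more abundant adaptor in every library. Without cytokine it was at 172 and 323 CPM in ΔHD1/fl lines 1 and 2, 318 and 184 CPM in ΔHD1/-, 209 and 255 CPM in ΔHD2/fl, and 181, 149 and 138 CPM in ΔHD2/-. The 2 ΔHD1 genotypes covered the same range. In ΔHD2/- all 3 lines lay below both ΔHD2/fl lines, as for 14.9% of all genes tested.

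Bcl9 without cytokine was at 34.0 and 66.0 CPM in ΔHD1/fl, 44.5 and 67.8 CPM in ΔHD1/-, 35.3 and 55.2 CPM in ΔHD2/fl, and 43.8, 54.1 and 52.8 CPM in ΔHD2/-. Every genotype overlapped the others. Its highest value anywhere was 104.1 CPM, in ΔHD1/fl line 1 with Wnt3a. Per kilobase, the ratio of Bcl9l to Bcl9 was 2.76 to 7.54 without cytokine (median 4.89), 1.58 to 9.10 with Wnt3a (median 3.54) and 2.25 to 4.71 with TGFβ (median 3.24), and with TGFβ it was below that of the untreated library in 8 of 9 lines.

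Of the Pygopus genes, Pygo2, the form found broadly across tissues, was at 83.1 to 133.5 CPM in every library. Its median was 119 CPM without cytokine, 114 CPM with Wnt3a and 111 CPM with TGFβ, and the ranges of the 3 treatments overlapped. Pygo1 had 79 to 130 reads in each of the 6 libraries of the lines numbered 2 of ΔHD1/fl and ΔHD1/-, at 2.97 to 4.62 CPM. In the other 21 libraries it had 0 to 16 reads (at most 0.644 CPM), with at most 3 reads in 14 of them and 0 in 11. All 9 ΔHD2/- libraries had 0 reads, which allows up to 0.135 CPM, while each of the 6 ΔHD2/fl libraries had 3 to 16 reads (0.119 to 0.644 CPM). The mean of the ΔHD2/fl libraries, 0.403 CPM, was 2.98 times the largest of those limits, 3 reads in 1 library, although the lowest ΔHD2/fl library lay under it. Of all genes tested, 2.41% had every ΔHD2/- library below every ΔHD2/fl library. Pygo1 thus passed the filter of 1 CPM in 2 libraries only through those lines with little Cdh1, and whether their marker levels bear on it was not tested.

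Ldb1 ran from 87.2 CPM in ΔHD1/- line 2 with Wnt3a to 277 CPM in ΔHD1/- line 1 with TGFβ. Without cytokine it was at 165 and 119 CPM in ΔHD1/fl, 195 and 96.2 CPM in ΔHD1/-, 155 and 189 CPM in ΔHD2/fl, and 176, 198 and 223 CPM in ΔHD2/-. Its lowest untreated levels were in the lines numbered 2 of the ΔHD1 genotypes, where Pygo1 was highest. Over the 9 line means the correlation of Ldb1 with Pygo1 on the log2 scale was -0.89 (over 27 libraries -0.78, within lines 0.14), which rests on those lines, and what their marker levels contribute was not tested.

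The response to TGFβ was taken as the mean over the 4 genotypes and tested with limma on log2(CPM + 1) over 13270 genes. A gene was called at an adjusted p of at most 0.05 and a change of at least 2-fold. TGFβ drives epithelial-mesenchymal transition in such cells. Of the 6 genes 0 were called (1 at an unadjusted p under 0.05, 0 with edgeR), against 5.42% of all genes tested. Nearest was Bcl9l, which was lower with TGFβ in 9 of 9 lines. It went from 138 to 323 CPM (median 184) without cytokine to 70.7 to 193 CPM (median 128), so that the ranges overlapped and the difference was within each line. Its log2 fold change was -0.67 ± 0.21 (SE, n = 9 lines, limma adjusted p = 0.0398), short of 2-fold. At an unadjusted p of 0.05 and 1.5-fold, 1 of 6 genes passed, against 16.3% of all genes. Alternative settings gave adjusted p-values from 7.41e-05 to 0.130 and log2 fold changes from -0.71 to -0.50. Leaving out any 1 line other than the 2 ΔHD1/- lines put the adjusted p at 0.0543 to 0.129, and averaging ΔHD2/- lines 2 and 3 put it at 0.0823.

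The TGFβ differences of single lines are those drawn in the plot of responses. The differences of Bcl9l ran from -1.37 to -0.17 on the log2 scale, with the largest in the 2 ΔHD1/- lines. Ctnnb1 was lower in 8 of 9 lines, and in ΔHD2/- lines 2 and 3 it went from 5094 and 5406 CPM to 3086 and 2963 CPM. Ldb1 was higher in 9 of 9 lines, from 165 to 260 CPM in ΔHD1/fl line 1 and from 223 to 229 CPM in ΔHD2/- line 3. Bcl9 was lower in 8 of 9 lines and Pygo2 in 7 of 9. Among all genes, 15.7% were lower in every line and 5.41% higher in every line.

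**Figure D3:**
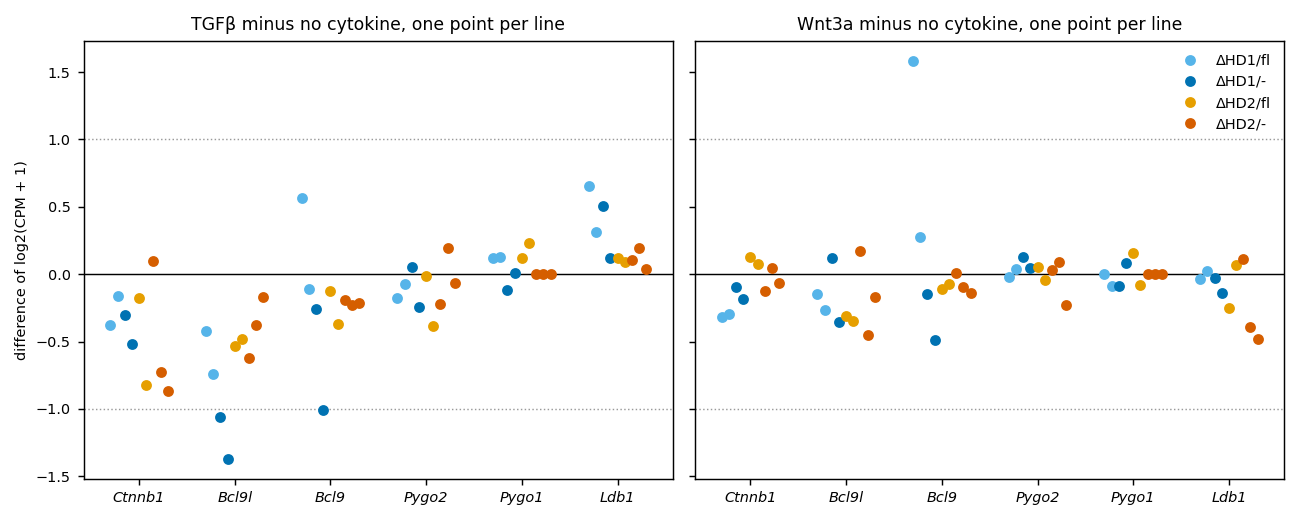
Difference of log2(CPM + 1) between TGFβ (left) or Wnt3a (right) and no cytokine for each gene, 1 point per line, coloured by genotype; dotted lines mark a 2-fold difference. With TGFβ all 9 points of Bcl9l lie below 0 and all 9 of Ldb1 above it, and with Wnt3a the Bcl9 point of ΔHD1/fl line 1 stands apart at 1.58.

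The mean log2 fold change with TGFβ was -0.42 ± 0.37 for Ctnnb1 (SE, limma adjusted p = 0.475), 0.25 ± 0.21 for Ldb1 (adjusted p = 0.433), -0.22 ± 0.15 for Bcl9, -0.11 ± 0.079 for Pygo2 and 0.061 ± 0.43 for Pygo1. Libraries of 1 line under different treatments deviated together, so the fit with cell line as a block removes the spread between lines. With it the changes were the same and the adjusted p-values were 7.41e-05 for Bcl9l, 0.00746 for Ctnnb1 and 0.0190 for Ldb1, while Bcl9, Pygo2 and Pygo1 stayed between 0.132 and 0.449. By adjusted p alone, with no fold limit, 1 of 6 genes passed without the block and 3 of 6 with it. The same rule passed 16.8% of all genes without the block and 47.6% with it, so the count with the block was near the background. With the 2-fold limit the block called 0 of the 6 genes and 8.92% of all genes.

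CPM values depend on the total of each library. The median log2 fold change with TGFβ over all genes was -0.16 on CPM and -0.020 after median-of-ratios scaling, and the median of the 6 genes on CPM was also -0.16. After that scaling Bcl9l was at -0.50 (limma adjusted p = 0.130), Ctnnb1 at -0.25, Ldb1 at 0.43, Bcl9 at -0.046 and Pygo2 at 0.060, so Pygo2 changed sign while Bcl9l, Ctnnb1 and Ldb1 kept theirs. Over all genes it moved the calls from 247 higher and 472 lower to 317 higher and 316 lower.

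With Wnt3a none of the 6 genes were called by limma (0 at an unadjusted p under 0.05, 0 with edgeR), against 0.0226% of all genes tested, so the count is no result about these genes. The largest mean log2 fold change was -0.20 ± 0.21 (SE, adjusted p = 1.00), for Bcl9l. Ctnnb1 was at 858 to 5270 CPM with Wnt3a (median 1247) and 975 to 5406 CPM without cytokine (median 1395), and was lower in 6 of 9 lines. Ldb1 was lower in 6 of 9 lines and Pygo2 higher in 6 of 9. Bcl9 in ΔHD1/fl line 1 stood apart, at 34.0 CPM without cytokine and 104.1 CPM with Wnt3a, whereas the other ΔHD1/fl line went from 66.0 to 80.1 CPM and the 7 remaining lines differed by -0.49 to 0.0052 on the log2 scale.

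Within single genotypes, 0 of 48 gene and treatment pairs were called by limma (2 at an unadjusted p under 0.05, 0 with edgeR), against 0.36% over all genes. With the line block 1 of 48 was called, Bcl9l with TGFβ in ΔHD1/- (log2 fold change -1.21 ± 0.18 SE, adjusted p = 0.000999), against 3.3% over all genes. There it went from 318 to 152 CPM in line 1 and from 184 to 70.7 CPM in line 2. Without the block the same change had an adjusted p of 0.223. The 3.3% is a mean over both cytokines and all genotypes. For TGFβ in ΔHD1/- alone, the fit with the block called 330 genes higher and 908 lower of 13270. At an unadjusted p of 0.05 and 1.5-fold, 2 of 48 pairs passed, against 5.08% over all genes.

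The response to each cytokine after recombination was tested against the response in the matching fl lines. Of 24 such differences 0 were called by limma (1 at an unadjusted p under 0.05, 0 with edgeR), against 0.0132% over all genes. At an unadjusted p of 0.05 and 1.5-fold, 1 of 24 passed, against 0.727% over all genes. The largest was Bcl9 with Wnt3a in the ΔHD1 lines, where the log2 change in ΔHD1/- was lower by 1.25 ± 0.43 (SE, adjusted p = 1.00) than in ΔHD1/fl. For Bcl9l with TGFβ the difference was -0.63 ± 0.63 in the ΔHD1 lines and 0.12 ± 0.58 in the ΔHD2 lines. The larger TGFβ difference of Bcl9l in ΔHD1/- is thus not shown to differ from that in ΔHD1/fl.

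Recombination removes the floxed copy of Bcl9 and of Bcl9l, and the lines were compared over line means, with each line counted once. None of 12 gene and family pairs were called by limma (0 at an unadjusted p under 0.05, 0 with edgeR), against 0.0226% over all genes. In the ΔHD1 lines the line mean of Bcl9 was 63.0 and 69.1 CPM with the floxed alleles and 40.6 and 49.7 CPM after recombination (log2 fold change -0.50 ± 0.24 SE, adjusted p = 0.985). The recombined lines lay below both fl lines, as for 15.3% of all genes tested, but without cytokine alone the change was 0.21, and the difference came from the Wnt3a and TGFβ libraries. In the ΔHD2 lines Bcl9 was at 33.4 and 50.0 CPM against 42.0, 50.2 and 48.7 CPM (0.19 ± 0.22, adjusted p = 0.902).

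Bcl9l had line means of 152 and 261 CPM in ΔHD1/fl and 272 and 133 CPM in ΔHD1/- (-0.14 ± 0.39 SE, limma adjusted p = 1.00). In ΔHD2/fl it had 174 and 213 CPM, and in ΔHD2/- 167, 124 and 128 CPM (-0.47 ± 0.36, adjusted p = 0.828). All recombined ΔHD2 lines were below both fl lines, as for 15.7% of all genes tested, by a difference within the spread between lines. A fold of 0.5 would be -1 on this scale. None of the 4 line-mean estimates for Bcl9 and Bcl9l reached it. Only Bcl9 in the ΔHD2 lines (0.19 ± 0.22 SE) lay well apart from -1. The SEs did not separate Bcl9 in the ΔHD1 lines (-0.50 ± 0.24), or Bcl9l in either family, from -1 or from 0. Under single treatments Bcl9 in the ΔHD1 lines was at 0.21 ± 0.30 without cytokine, -1.04 ± 0.30 with Wnt3a and -0.66 ± 0.30 with TGFβ, none of them called.

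On the log2(CPM + 1) scale, the largest difference over line means among the 6 genes was that of Ctnnb1, and Pygo1 in the ΔHD2 lines was at -0.47 ± 0.74 (SE, limma adjusted p = 0.940). With edgeR on reads the Pygo1 value was -7.98 (unadjusted p = 0.0419, adjusted p = 0.749), a fitted value against libraries with 0 reads that is no measure of size, and Ctnnb1 was at 1.03. The line means of Ctnnb1 were 1132 and 2098 CPM in ΔHD2/fl and 1115, 4484 and 4512 CPM in ΔHD2/- (log2 fold change 0.87 ± 0.63 SE, limma adjusted p = 0.814), and it was at 1196 and 962 CPM in ΔHD1/fl and 1356 and 838 CPM in ΔHD1/- (-0.012 ± 0.69). Under single treatments 0 of 36 gene and family pairs were called (3 at an unadjusted p under 0.05, 0 with edgeR), against 0.289% over all genes. At an unadjusted p of 0.05 and 1.5-fold, 2 of 36 passed, against 6.08% over all genes. Without ΔHD2/- line 1 Ctnnb1 was called without cytokine (1.66 ± 0.40, adjusted p = 0.0225) and with Wnt3a (1.55 ± 0.40, adjusted p = 0.0334), which then rests on the nearly identical lines 2 and 3. In those fits 5.67% and 5.17% of all genes were called. Without ΔHD1/fl line 2 Bcl9 was called with Wnt3a in ΔHD1/- against ΔHD1/fl (-1.23 ± 0.33, adjusted p = 0.0411), which leaves 1 fl line, the one at 104.1 CPM, assumed to vary as the other groups do, and in that fit 5.34% of all genes were called.

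The genes around Ctnnb1 were examined after its level in ΔHD2/- lines 2 and 3 had been seen. Its mean log2 level in these lines was 1.95 above the median of the other 7 lines, and 1.29% of tested genes had a larger difference. Of 18 tested genes reaching within 1000000 bases of Ctnnb1 on chromosome 9, 4 (22.2%) had both lines above the other 7, against 15.4% of all tested genes. Their median difference was 0.20, against 0.018 over all genes. Next to Ctnnb1 by RefSeq positions, Rpl14 was at 0.32, Eif1b at 0.49 and Entpd3 at -3.05 on one side, and Ulk4 at -0.73, Trak1 at 0.55 and Vipr1 at -0.83 on the other, and none of these had both lines above the other 7. The nearest genes with both lines above the rest were Sec22c (0.70), Ss18l2 (1.53) and Nktr (0.75), which adjoin each other. Of the other complex genes, Bcl9l was at -0.45 and Bcl9, Pygo2 and Ldb1 at 0.048, -0.013 and 0.077 in the same comparison.

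**Figure D4:**
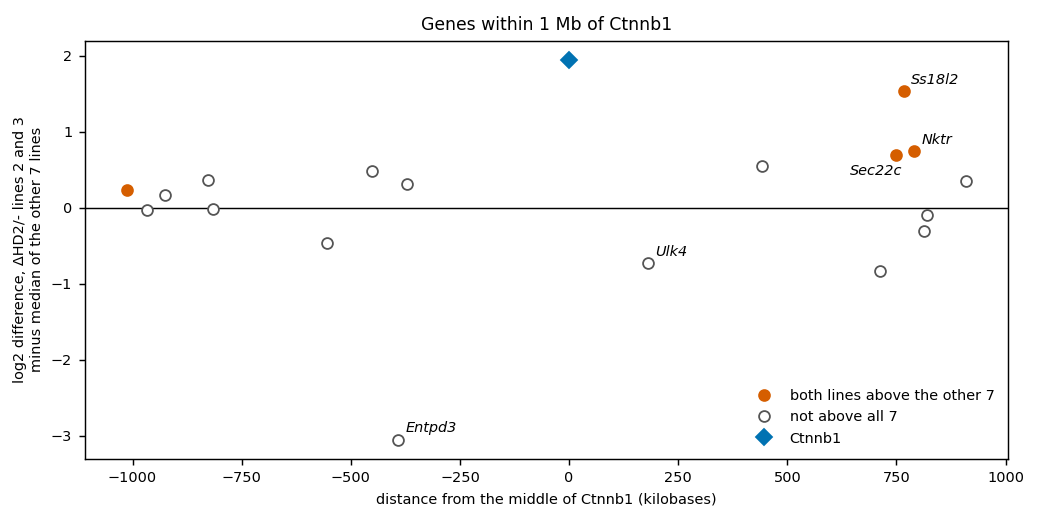
Difference in log2(CPM + 1) between ΔHD2/- lines 2 and 3 and the median of the other 7 lines for genes around Ctnnb1, by distance from its middle (kilobases); filled circles are genes with both lines above the other 7. Ctnnb1 stands at 1.95 and its neighbours Rpl14, Ulk4 and Trak1 at 0.32, -0.73 and 0.55.

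The partners of these proteins were taken from 4 lists with 41 genes, of which 40 passed the filter and Ldb2 did not. The lists held 16 enhanceosome genes (among them the Ssbp and Runx genes, Lmo4 and chromatin subunits), 9 TCF/LEF and Tle genes, 8 genes of the destruction complex and 8 other binders of β-catenin. With TGFβ 1 of 40 was called, against 5.42% of all genes tested. It was Ssbp2, one of the single-stranded DNA-binding proteins that pair with Ldb1. It was at 11.0 to 59.7 CPM (median 32.3) without cytokine and 0.605 to 14.98 CPM (median 9.88) with TGFβ. It fell by 1.93 ± 0.48 on the log2 scale (SE, limma adjusted p = 0.0109) and was lower in 9 of 9 lines. With the line block 4 of 40 were called, 3 lower and 1 higher, near the 8.92% of all genes called in that fit, so neither count sets the lists apart. They were Ssbp2, Runx3 (-1.10 ± 0.16 SE, adjusted p = 0.000162, lower in 9 of 9 lines), Cdh1 (-1.53 ± 0.59, adjusted p = 0.0481, lower in 8 of 9) and Cdh2, the neural cadherin (1.21 ± 0.25, adjusted p = 0.00179, higher in 8 of 9). Runx3 encodes a DNA-binding factor and had a median of 71.8 CPM without cytokine and 17.9 CPM with TGFβ. The median log2 fold change of the lists was -0.16, the same as over all genes. No gene of the TCF/LEF and Tle list was called with either cytokine, with or without the block.

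With Wnt3a 1 of 40 was called, Axin2, a scaffold of the destruction complex, with values given above, against 0.0226% of all genes. With the line block it was again 1 of 40, against 0.241%. Since Axin2 had been taken as the check of the Wnt3a treatment, neither count sets the lists apart. Over line means 0 of 40 were called in either family by limma, against 0.0226% over all genes. The lists' median was -0.16 in the ΔHD1 lines and 0.11 in the ΔHD2 lines, against -0.056 and -0.0037 over all genes tested.

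Over the 27 libraries, which share lines and therefore are not independent, the correlations between pairs of the genes other than Pygo1 on the log2 scale ran from -0.22 (Bcl9l with Ctnnb1) to 0.42 (Ctnnb1 with Ldb1). Within lines, after removing each line's mean, Bcl9l went with Pygo2 (0.54), Bcl9 (0.44) and Ctnnb1 (0.40) and against Ldb1 (-0.45). Ctnnb1 went against Ldb1 (-0.50). The libraries of a line differ in treatment, and these correlations were taken on CPM only. With TGFβ the median gene changed by -0.16 on CPM and by -0.020 after median-of-ratios scaling. Bcl9 and Bcl9l had a correlation of 0.26 over libraries and 0.11 over line means.

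By the highest Pearson correlation over 27 libraries, the genes most like Ctnnb1 were Tshz2 (0.94) and Sdk2 (0.93), with medians of 0.126 and 0.213 CPM. Those most like Bcl9l were Inpp5e (0.88) and Bbs1 (0.87), and those most like Bcl9 were Slc26a2 (0.76) and Rarg (0.72). Pygo2 was most like Idh2 (0.87) and Cchcr1 (0.85), Tecr (0.89) was among the genes most like Ldb1, and Pygo1 was most like Slc16a9 (0.97) and Sec16b (0.97). The measure was chosen from all tested genes and carries no test.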

How the data were processed

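RNA was measured by sequencing in 27 libraries of 9 mouse tumour cell lines. From stranded mRNA libraries, the authors mapped uniquely aligned single reads with STAR (mm10) and used QuasR to count those starting in RefSeq exons; whether strand was used is not given in the sources used here. The deposited values were CPM, which the authors had scaled to a total of 1000000 gene reads per library and no further. All values were whole multiples of the worth of 1 read (100% within a tolerance of 0.02), so read numbers were recovered, 21.86 to 33.69 M (M, 1000000) per library. Of 24454 gene identifiers 24374 had a symbol.

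Genes were kept where 2 or more libraries reached 1 CPM, which left 13270. Values of log2(CPM + 1), a scale that understates changes of low genes, were tested with limma 3.58.1 in R 4.3.3 (trend and robust settings; 12 group means from 27 libraries, or 4 genotype means from 9 line means). Adjusted p-values are Benjamini-Hochberg over all genes. Alternatives included omitting the filter, a pseudocount of 0.1, size factors by median of ratios, edgeR 4.0.16 (quasi-likelihood, on recovered reads), other thresholds, the replicate block, only the libraries compared, lines left out, and ΔHD2/- lines 2 and 3 averaged. Deviations from group means correlated between treatments of the same line (0.509 to 0.940 over genes), since the number stands for a cell line. Functions were tested on simulated data. Coordinates and exon lengths came from GENCODE M21 (GRCm38). The 6 genes were always named; listed partners were named where called (up to 4 each way), the 2 most correlated genes for each (1 of these is not reported here), and Axin2 and Cdh1 as checks. Genes around Ctnnb1 fall outside this rule and were chosen after values were seen. The genes and lists were chosen with earlier results of these data known. Each p-value from a fit without a block measures the spread between lines. With the line block it measures how far the responses of lines of the same genotype differ. The floor for 0 reads covers counting error only, since amplified reads without molecular identifiers may be copies of 1 molecule.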

Additional observations from a re-analysis of the deposited data

How the results depend on the processing

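No gene of the complex was called in any comparison as reported, and most alternatives gave the same count. An unadjusted p of 0.05 with a 1.5-fold limit gave 1 gene in the mean TGFβ response, 2 in responses within a genotype, 2 between recombined and fl lines under 1 treatment and 1 in a difference of responses, against 16.3%, 5.08%, 6.08% and 0.727% of all genes. An adjusted p with no fold limit gave 1 in the mean TGFβ response. Leaving out both ΔHD1 lines 2, after which Pygo1 no longer passed the filter, or averaging ΔHD2/- lines 2 and 3, changed no count of calls. Leaving out 1 line at a time gave 0 to 2 between recombined and fl lines under 1 treatment, in fits that called 0.0918% to 2.41% over all genes.

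The replicate block on cell line gave 1 call within a genotype (Bcl9l with TGFβ in ΔHD1/-) and changed no other call of the 6 genes. Among their partners it raised the TGFβ calls from 1 to 4 of 40. Whether a recombined line came from the fl line of the same number is not given. Deviations of same-numbered lines correlated at 0.117 to 0.472 in ΔHD1 and 0.0871 to 0.190 in ΔHD2. With 2 fl lines in a family, their deviations mirror each other. A block on that number gave 0 calls, as without it.

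Among values under the threshold, sign changes were common in the ΔHD1 lines. With Wnt3a, Pygo1 was at 0.0097 with median-of-ratios scaling and 0.069 with edgeR. With TGFβ, Pygo2 was at 0.060 and 0.045. Between ΔHD1/- and ΔHD1/fl, edgeR gave 0.045 for Bcl9l, 0.082 for Ctnnb1 and 0.020 for Ldb1; leaving out both ΔHD1 lines 2 gave 0.76, 0.19 and 0.19. Libraries without cytokine alone gave 0.21 for Bcl9 and 0.038 for Bcl9l, a pseudocount of 0.1 gave 0.31 for Pygo1, and median-of-ratios scaling 0.068 for Ctnnb1.

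Leaving out 1 line at a time gave, with Wnt3a, -0.053 to 0.27 for Bcl9, -0.033 to 0.027 for Pygo1 and -0.00046 to 0.039 for Pygo2. Between ΔHD1/- and ΔHD1/fl it gave -0.67 to 0.38 for Bcl9l, -1.26 to 1.08 for Pygo1, -0.027 to 0.13 for Pygo2, -0.36 to 0.34 for Ctnnb1 and -0.70 to 0.48 for Ldb1. Between ΔHD2/- and ΔHD2/fl it gave -0.087 to 0.47 for Bcl9 and -0.029 to 0.35 for Ldb1. The cause of these changes was not tested. Per kilobase of the longest transcript the medians were 7.53 CPM for Bcl9, 36.1 for Pygo2 and 56.1 for Ldb1. With 2 or 3 lines per genotype, differences between genotypes smaller than the spread between lines could not be seen.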
